A study of Mus musculus with 14 samples.

Results

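Regulatory T cells (Tregs) from MC38 tumors were compared with Tregs from spleen, in libraries labelled WT. All samples labelled TIL WT 1 to 4 or Spleen WT 1 to 4 were taken, which gave 8 of the 14 libraries of the series, 4 per tissue. The WT-labelled mice had an intact Il23r gene on a B6 background and carried a FoxP3 allele that drives Cre recombinase and a yellow fluorescent protein (YFP). Each mouse bore an endpoint flank tumor of MC38, a mouse colon carcinoma line, so the spleens came from tumor-bearing animals too, and spleen of tumor-free mice was not part of the comparison. Cells were isolated directly from tissue and sorted on FoxP3-YFP, and libraries were made from their polyadenylated RNA by an ultra-low-input method. The 6 other libraries (3 per tissue) were from mice labelled Flox, with the same FoxP3 Cre-YFP allele and Il23r alleles designed for deletion by Cre in Tregs. They enter only where named. Age and sex of the mice, and whether tumor and spleen libraries with the same number came from 1 mouse, are not stated in the labels. Neither is it stated that replicates are separate mice, so every p-value below measures the spread between these libraries.

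Tregs are CD4 T cells that depend on the transcription factor Foxp3 and restrain other lymphocytes. In lymphoid organs many of them are resting cells that recirculate under the control of factors such as Tcf7 and Klf family members. In non-lymphoid tissue and in tumors, Tregs are known for an activated state with high levels of costimulatory and inhibitory receptors, the IL-2 receptor alpha chain, tissue-homing chemokine receptors and effector factors such as Maf and Id2.

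The 8 libraries held 4859099 to 10208509 counts and 13657 to 15312 genes with a count. Libraries were closer within a tissue (correlation of log2 levels 0.77 to 0.845 within spleen and 0.706 to 0.79 within tumor) than between tissues (0.603 to 0.704). The first principal component held 33.5% of the variance and separated the tissues, and the second, with 17.1%, set tumor replicate 1 apart from the other 3 tumor libraries. Both replicate 2 libraries carried transcripts of the Y-linked gene Ddx3y, at 127 counts per 1e6 (CPM) in tumor and 29.5 CPM in spleen, against at most 0.599 CPM in the other 6. Xist, transcribed from the inactive X chromosome, was present in all 8. Its level was 56.8 to 549 CPM in tumor and 66.9 to 409.9 CPM in spleen, so the replicate 2 libraries held both Ddx3y and Xist. Other Y chromosome genes were scarce. Summed over the tumor libraries, Ddx3y had 1181 counts, while Eif2s3y had 6, Kdm5d 6 and Uty 5. Over the spleen libraries the counts were 385 for Ddx3y, 44 for Eif2s3y, 37 for Kdm5d and 32 for Uty. Whether the replicate 2 libraries came from male mice was not tested. Mitochondrial transcripts took 0.781 to 1.13% of counts in tumor and 1.36 to 2.06% in spleen (exact permutation test, two-sided p = 0.0286, the smallest that 4 against 4 can give). Composition factors (trimmed mean of M-values, TMM) lay between 0.759 and 0.949 in tumor and between 1.09 and 1.25 in spleen, without overlap (same exact permutation test, p = 0.0286). All CPM below are counts scaled to the library total after this adjustment, and values of a tissue are listed in the order of replicates 1 to 4.

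Of 10560 genes tested, 750 (7.1%) differed between tumor and spleen Tregs at an adjusted p under 0.05 (edgeR's quasi-likelihood test with Benjamini-Hochberg adjustment). Among these, 412 (3.9% of genes tested) were higher and 338 (3.2%) were lower in tumor. The counts of list members below are to be read beside these 2 shares. Their median absolute log2 fold change was 3.35, and the smallest was 0.752. In 735 of the 750 no tumor library overlapped a spleen library, a separation seen in 1930 (18.3%) of all genes tested, higher in tumor in 9.76% and lower in 8.51%. Over all genes the median standard error (SE) of a log2 fold change was 0.684, and the coefficient of variation between replicates was 0.809. Scaling to library totals without the composition factors gave 282 higher and 614 lower genes, 31.5% higher instead of 54.9%, and moved the median log2 fold change of all genes from 0.05 to -0.39. Changes below are therefore relative to the TMM scaling. With the replicate number as a block, which pairs libraries of equal number, 173 genes passed (110 higher, 63 lower). Without both replicate 2 libraries 329 genes passed (173 higher, 156 lower). Leaving out 1 library gave 373 (spleen replicate 3) to 658 (spleen replicate 2), with 417, 419 and 482 without tumor replicate 4, spleen replicate 1 and tumor replicate 2. All 750 genes kept their direction in each of these fits in which they were tested. The called genes named below that lost the call in a fit without 1 library are stated, with spleen 1 to tumor 4 standing for the library left out. Unless stated, no tumor library overlapped a spleen library in a called gene that is named.

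**Figure D1:**
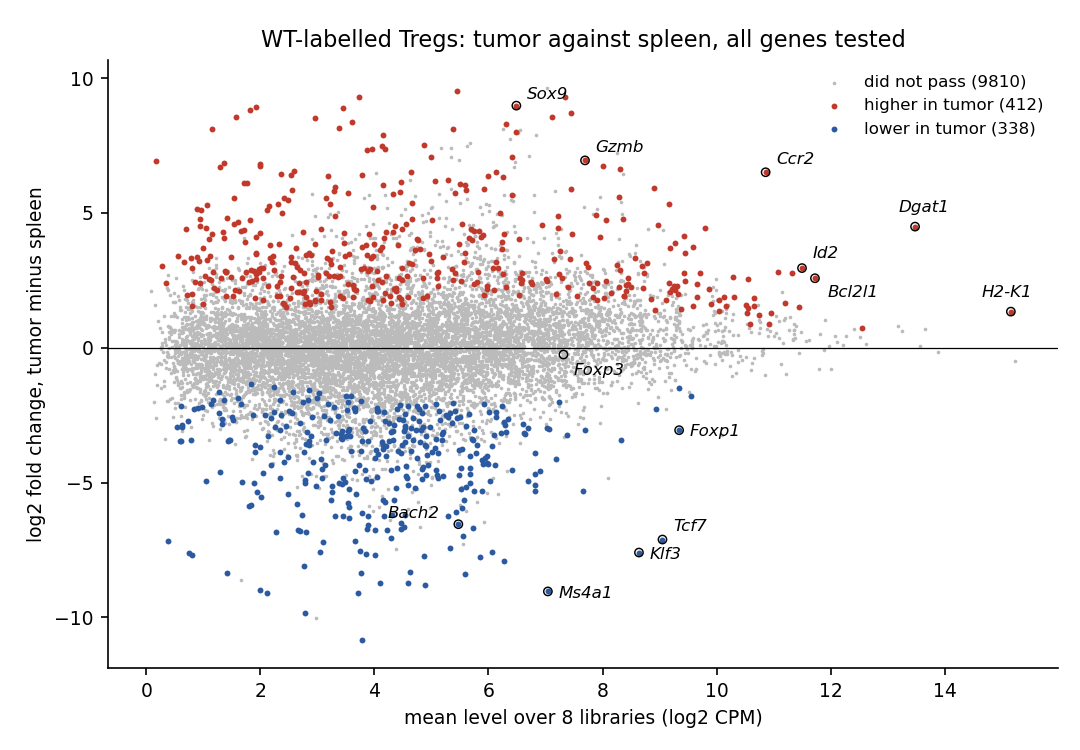
Mean level over the 8 libraries (x axis, log2 CPM) against the log2 fold change of tumor minus spleen (y axis) for the 10560 genes tested. Red points are the 412 genes that passed and were higher in tumor, blue points the 338 that passed and were lower, and grey points did not pass. Klf3, Tcf7 and Ms4a1 lie at the bottom of the well-expressed genes, Dgat1, Ccr2 and Bcl2l1 at the upper right, and Foxp3 lies near 0.

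Foxp3, the defining factor of the sorted cells, did not pass between tissues. Its transcripts stood at 97.04, 232, 117 and 136 CPM in tumor and 100.3, 271, 139 and 181 CPM in spleen, overlapping ranges, with a log2 fold change of -0.25 ± 0.50 (SE; adjusted p = 0.785, edgeR). The direction turned to 0.05 without spleen replicate 2. Its annotated span overlaps Flicr and Ccdc22, whose reads cannot be separated here. T cell lineage genes were present in every library, with a summed level of 3504 to 7140.0 CPM in tumor and 3655 to 5069 CPM in spleen, and 0 of 14 passed (3 at an unadjusted p under 0.05; 3 passed with DESeq2 and 1 with voom). Cd4 averaged 536 ± 317 CPM in tumor and 374 ± 38.5 CPM in spleen (SD, n = 4 each), whereas Cd8a stayed at or under 3.54 CPM. The labelled cell type thus had its defining transcripts in both tissues.

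Of 25 genes of Treg identity and suppression 6 rose in tumor, 1 fell and 18 did not pass, with a median log2 fold change of 1.47 against 0.05 over all genes tested. Il2ra, the IL-2 receptor alpha chain, was 3.67-fold higher, at 2452, 1515, 1829 and 1233 CPM in tumor and 426, 554, 520.5 and 414 CPM in spleen (log2 fold change 1.88 ± 0.30, adjusted p = 0.011). The lowest tumor library held over 2-fold the level of the highest spleen library. Fgl2, which encodes a secreted suppressive protein, rose from 5.29, 9.61, 4.28 and 6.44 CPM in spleen to 151, 85.1, 127 and 78.1 CPM in tumor (4.10 ± 0.57). Lag3, an inhibitory receptor for MHC class II, rose (spleen 1.59 to 6.25 CPM, tumor 39.7 to 60.7 CPM, 4.02 ± 0.62). Ctla4, the inhibitory receptor for CD80 and CD86, reached 2165, 656, 1681 and 651 CPM in tumor against 36.03, 151, 48.5 and 210.1 CPM in spleen (3.53 ± 0.73, adjusted p = 0.0249). In both tissues Ctla4 fell into 2 higher and 2 lower libraries, without overlap between the tissues. The other rises were those of Tnfrsf18, the receptor GITR (2.26 ± 0.47), and Capg, an actin-capping protein (2.17 ± 0.49). Gpr83, an orphan receptor known from resting Tregs, fell from 30.3, 37.2, 29.1 and 18.6 CPM to 0.579, 0.323, 0.292 and 0 CPM (-6.59 ± 0.86, adjusted p = 0.00565). Ikzf2, which encodes Helios, was at 3930.2, 3189.6, 4084 and 2641 CPM in tumor and 1656, 713, 1455 and 2399 CPM in spleen and did not pass (adjusted p = 0.0835). Il10 did not pass either, at 41.5 to 226 CPM in tumor and 1.33 to 38.8 CPM in spleen (3.11 ± 1.19), although it passed without spleen 2, where its log2 fold change was 5.16. In RNA of sorted populations, a change in the number of cells with a transcript and a change in its amount per cell cannot be told apart. Ctla4 lost its call without spleen 1, spleen 3 or tumor 3 (adjusted p up to 0.0665), Tnfrsf18 without spleen 1, spleen 3, spleen 4, tumor 2 or tumor 4 (up to 0.0804), and Capg without any library but spleen 2 or tumor 3 (up to 0.0979). The number of risen genes was 3 without spleen replicate 1 and 1 without both replicate 2 libraries.

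**Figure D2:**
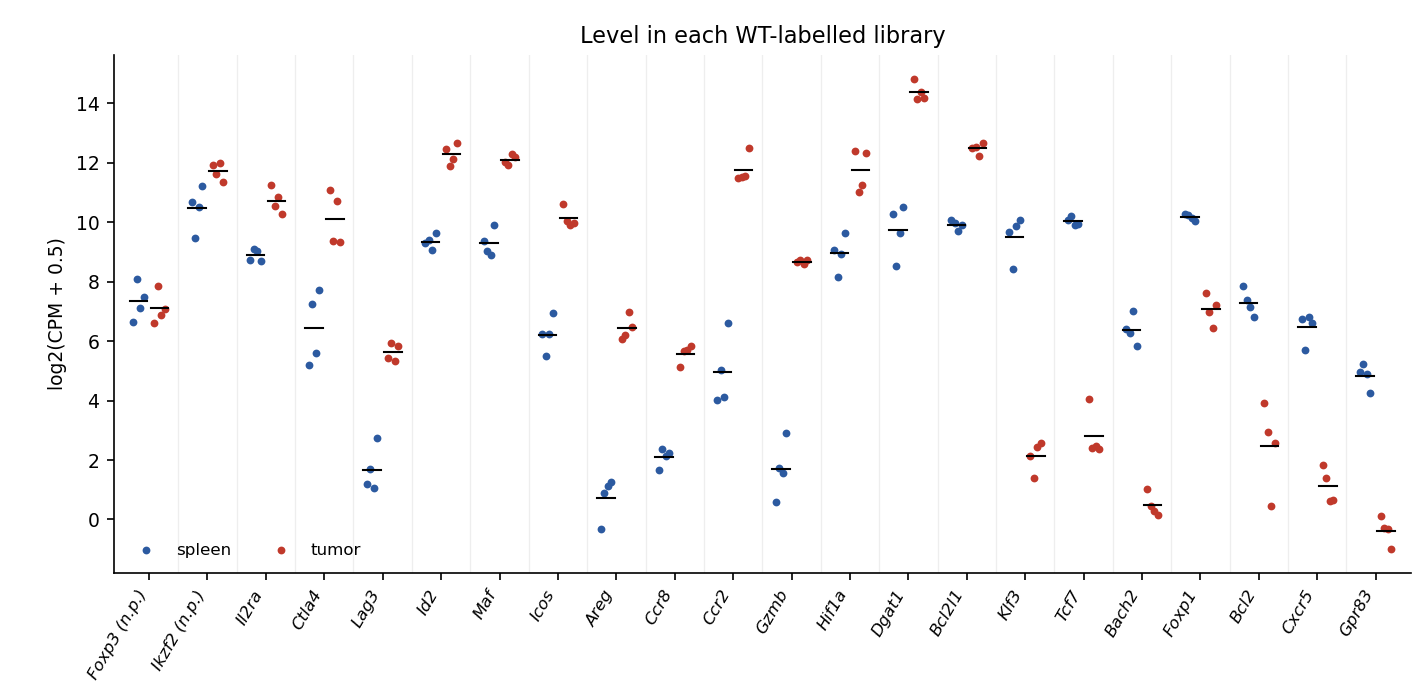
Level of 22 genes, as log2(CPM + 0.5), in the 4 spleen (blue) and 4 tumor (red) WT-labelled libraries, with replicates 1 to 4 from left to right and the group mean as a black line. Genes marked n.p. did not pass (Foxp3 and Ikzf2), and the tissues do not overlap in any gene except Foxp3. From Il2ra to Bcl2l1 every tumor library lies above the spleen libraries, and from Klf3 to Gpr83 every one lies below.

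The list of effector and tissue Treg genes had 15 of 30 members higher in tumor and 0 lower, with a median log2 fold change of 2.74. Id2, an inhibitor of E proteins, rose from 628, 679.6, 532 and 802 CPM in spleen to 5721, 3771, 4509.9 and 6497 CPM in tumor, 7.76-fold (log2 fold change 2.96 ± 0.25, adjusted p = 0.0029). Maf, a transcription factor of IL-10-producing T cells, rose from 658, 528, 473 and 972 to 4218, 3874, 5023 and 4681 CPM (2.76 ± 0.28). For both genes the lowest tumor library was above the highest spleen library by more than the spread within spleen. Icos, a costimulatory receptor, stood at 1578, 1052, 969 and 1017 CPM in tumor and 74.5, 44.5, 74.5 and 122 CPM in spleen (3.87 ± 0.43). Areg encodes amphiregulin, a growth factor that tissue Tregs release in repair, and rose from 0.299, 1.34, 1.69 and 1.895 CPM to 66.9, 73.1, 125 and 88.9 CPM (6.08 ± 0.75). Ccr8, a chemokine receptor known from tumor Tregs, rose (spleen 2.69 to 4.73 CPM, tumor 34.9 to 56.2 CPM, 3.63 ± 0.47), and Itgav, the integrin alpha V chain, rose (spleen 41.9 to 113 CPM, tumor 748 to 1706 CPM, 3.71 ± 0.47). Anxa2, Bhlhe40, Rgs1, S100a6, Cxcr6, Srgn, Lgals1, Rora and S100a4 also passed. Several well-known factors of effector Tregs did not: Batf averaged 13.98 CPM in tumor and 17.7 CPM in spleen (-0.34 ± 0.47), and Gata3 averaged 3292 and 2788 CPM (0.24 ± 0.22), with a sign that turned when libraries were scaled to their totals (-0.17). Irf4 (1.89 ± 0.93) and Prdm1 (1.29 ± 1.23) did not pass with larger errors. The number of risen members stayed between 11 and 15 when 1 library was left out. Of these genes, Rora lost its call without any library but spleen 2 or tumor 3 (adjusted p up to 0.104) and S100a4 without any library but spleen 2 (up to 0.111). Srgn lost it without spleen 1 or spleen 3 (up to 0.0582) and Lgals1 without spleen 1, spleen 3, spleen 4 or tumor 4 (up to 0.0665).

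Genes of resting and central T cells moved the other way: 9 of 25 fell in tumor and 0 rose, with a median log2 fold change of -0.85. Klf3, a repressor of the Krüppel-like family, fell from 808, 347, 939.8 and 1077 CPM in spleen to 3.86, 2.16, 4.96 and 5.404 CPM in tumor (-7.59 ± 0.63, adjusted p = 0.0029). Tcf7, the factor TCF-1 of naive and memory T cells, fell from 1090.1, 1176, 954 and 991 to 16.01, 4.74, 5.11 and 4.68 CPM (-7.11 ± 0.62). These are falls of 193-fold and 138-fold, and the lowest spleen library was still far above the highest tumor library. Bach2, a repressor that keeps T cells from effector differentiation, fell from 84.7, 77.3, 130.4 and 56.9 to 1.54, 0.863, 0.7301 and 0.601 CPM (-6.54 ± 0.66). Foxp1, a forkhead factor of T cell quiescence, fell 8.31-fold, from 1244, 1204, 1139.5 and 1049 to 195, 127, 87.3 and 148 CPM (-3.05 ± 0.36). Bcl2, a survival factor, fell (spleen 113 to 229 CPM, tumor 0.876 to 14.7 CPM, -4.53 ± 0.86). Id3, Actn1, Ly6c1 and Rasgrp2 were the other members that passed. Among genes of lymph node entry and egress, Ccr7 (0.72 ± 0.55), Klf2 (-0.49 ± 0.55) and S1pr1 (-0.61 ± 0.89) did not pass, and Lef1 (-2.49 ± 0.66) missed the threshold (adjusted p = 0.0555) and passed without tumor 2. Tcf7 overlaps Skp1 in the annotation and Bach2 overlaps Bach2os. Fewer members fell when 1 library was left out, 5 at the least (without spleen replicate 1) and 8 at the most. Bcl2 lost its call without tumor 2 or tumor 4 (adjusted p up to 0.0551), Id3 without spleen 1, spleen 3, tumor 2, tumor 3 or tumor 4 (up to 0.0714), Actn1 without any library but tumor 3 (up to 0.0753), Ly6c1 without any library but spleen 4 or tumor 4 (up to 0.0779) and Rasgrp2 without any 1 of the 8 libraries (up to 0.106).

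Among receptors of the TNF receptor superfamily and checkpoint receptors, 9 of 22 rose in tumor and 3 fell (median log2 fold change 1.86). Besides Icos, Lag3, Ctla4 and Tnfrsf18, the costimulatory receptor OX40 (Tnfrsf4) rose 5.94-fold, from 42.5, 45.2, 28.3 and 32.97 to 209.7, 235, 189 and 251 CPM (2.57 ± 0.44, adjusted p = 0.0132). Tnfrsf9, which encodes 4-1BB, rose from 121, 309, 169 and 233 to 612, 1114, 1215 and 1108 CPM (2.28 ± 0.42). Pdcd1 (PD-1) averaged 33.6 ± 5.67 CPM in tumor and 7.76 ± 2.003 CPM in spleen (SD, n = 4 each; 2.11 ± 0.43), and Tnfrsf1b, the TNF receptor TNFR2, and Havcr2 (TIM-3) passed too. Not all receptors rose. Tnfrsf25 (DR3) fell from 14.2, 18.4, 10.6 and 14.02 to 2.51, 3.77, 1.31 and 2.28 CPM (-2.52 ± 0.45), and Btla, the attenuator shared by B and T cells, was lower (-3.49 ± 0.67). Cd160 had 3 counts in the tumor group against 145 in spleen, a ratio of 37.7 in favour of spleen (95% counting interval 12.6 to 185). Tnfrsf4 overlaps Sdf4 in the annotation. Without 1 library 5 (spleen replicate 1) to 8 members rose, and without both replicate 2 libraries 1 rose and 2 fell. Tnfrsf25 lost its call without tumor 4 (adjusted p 0.0525), Tnfrsf9 without spleen 3 (0.0561), Pdcd1 without spleen 1, spleen 3, tumor 1, tumor 2 or tumor 4 (up to 0.0696), Tnfrsf1b without spleen 1, spleen 2, spleen 4 or tumor 2 (up to 0.0731) and Btla without tumor 1, tumor 2, tumor 3 or tumor 4 (up to 0.0571).

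Chemokine receptors, homing receptors and chemokine ligands had 9 of 26 tested members higher and 2 lower in tumor (median log2 fold change 1.52). Ccr2, the receptor for the monocyte-attracting chemokine CCL2, rose from 15.8, 32.3, 17.03 and 96.5 CPM in spleen to 2909, 2944, 2996 and 5862 CPM in tumor, 91.2-fold (6.51 ± 0.75, adjusted p = 0.0043). Of the chemokine ligands, Ccl3 rose (spleen 0.199 to 0.394 CPM, tumor 10.9 to 25.7 CPM, 5.97 ± 0.56) and Ccl4 rose (spleen 0.399 to 1.57 CPM, tumor 40.01 to 97.2 CPM, 6.20 ± 0.72). These neighbours overlap in the annotation, so their reads may not be separated. Cxcl10, the interferon-induced ligand of CXCR3, rose from 2.89, 2.13, 2.99 and 3.22 to 51.3, 26.8, 40.01 and 39.9 CPM (3.81 ± 0.46). Cxcr5, which guides cells into B cell follicles, fell from 107, 51.5, 112 and 98.3 CPM in spleen to 3.09, 2.16, 1.02 and 1.08 CPM in tumor (-5.65 ± 0.68, adjusted p = 0.00502), and Itga4, the integrin alpha 4 chain, was lower (-2.997 ± 0.72). Ccr8, Cxcr6, Ccl5 and Ccr1 were the other members that rose. Ccr4 and Cxcr3 did not pass, with log2 fold changes of -1.28 ± 0.54 and 1.08 ± 0.40. Without 1 library 7 (spleen replicate 1) to 10 members rose. Itga4 lost its call without any library but spleen 2 or tumor 1 (adjusted p up to 0.0921), Ccl5 without any library but spleen 2 or tumor 3 (up to 0.079) and Ccr1 without any library but spleen 2 (up to 0.116).

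Of 16 tested Th1 and cytotoxic effector genes, 6 rose and 1 fell in tumor. Gzmb, which encodes the serine protease granzyme B, separated the tissues widely: 404, 429.8, 386 and 421 CPM in tumor against 0.998, 2.83, 2.49 and 7.01 CPM in spleen, 124-fold (6.95 ± 0.74, adjusted p = 0.00399). Its tumor level varied by a standard deviation of 19.5 CPM around 410.1 CPM (n = 4). Nkg7, a cytotoxic granule membrane protein, rose (spleen 2.99 to 8.03 CPM, tumor 70.9 to 120.3 CPM, 4.07 ± 0.57). Prf1, which encodes perforin, rose with a wide spread, 489.8, 41.3, 9.199 and 16.9 CPM in tumor against 0.569 to 2.39 CPM in spleen (6.52 ± 1.52), and tumor replicate 1 held most of it. Gzmc, Hopx and Serpinb6b passed at lower fold changes. Reads of Gzmb and Gzmc, members of 1 gene family, may be shared. The Th1 genes Ifng (2.63 to 14.1 CPM in tumor, 1.33 to 3.29 CPM in spleen, adjusted p = 0.0808) and Tbx21 (12.9, 11.2, 20.3 and 344 CPM against 1.198, 2.76, 10.4 and 3.600 CPM, adjusted p = 0.0891) did not pass. Eomes fell (spleen 2.99 to 6.77 CPM, tumor 0.1201 to 1.31 CPM, -2.66 ± 0.67). It lost its call in each of the 8 fits without 1 library (adjusted p up to 0.0974), as did Hopx (up to 0.0986). Prf1 lost it without spleen 1, spleen 2, spleen 3, spleen 4 or tumor 2 (up to 0.0947), Gzmc without any library but tumor 1 or tumor 3 (up to 0.0764) and Serpinb6b without any library but spleen 2 or tumor 3 (up to 0.108). In all, 2 members rose without spleen replicate 1.

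Il23r, the gene altered in the other mice of the series, was near the limit of detection in both tissues. It had 2 counts in tumor replicate 2 and 2 counts in spleen replicate 3 and none in the other 6 WT-labelled libraries. Both groups are under a floor of 3 counts, so no fold is given, and any difference was not detectable at this depth. Of 8 tested genes of the Th17 and IL-23 receptor pathway, Jak2 and Stat3 rose. Jak2, the kinase bound to the IL-23 receptor and to many other cytokine receptors, rose from 75.8, 43.95, 97.8 and 141 to 631, 977, 783 and 559 CPM (3.04 ± 0.47, adjusted p = 0.00935). Stat3 rose (spleen 147 to 359 CPM, tumor 513 to 1035 CPM, 1.78 ± 0.41) and lost its call without any library but spleen 4 or tumor 1 (adjusted p up to 0.094). Il17f, Il22 and Ccl20 had 0 counts in all 8 libraries.

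Antigen-response, NF-kB and AP-1 genes had 8 of 34 tested members higher and 1 lower (median log2 fold change 1.13). Fosl2, a subunit of the AP-1 factor, rose from 1.198, 1.81, 1.89 and 2.46 CPM in spleen to 67.7, 106, 334 and 95.1 CPM in tumor (6.35 ± 0.79, adjusted p = 0.00522). Atf3, a stress-induced partner of AP-1 proteins, rose (spleen 0.0998 to 0.945 CPM, tumor 8.29 to 46.9 CPM, 5.75 ± 0.92). Dusp5 and Dusp4, phosphatases that switch off ERK, rose by 2.94 ± 0.41 and 3.73 ± 0.66 on the log2 scale. The NF-kB inhibitors Nfkbia (1.83 ± 0.39) and Tnfaip3 (2.77 ± 0.62), both NF-kB targets themselves, were higher, and so were Nr4a2 (2.63 ± 0.55) and Egr1 (2.50 ± 0.62). Myc fell from 40.9, 54.8, 46.2 and 92.5 to 14.8, 9.06, 11.5 and 10.6 CPM (-2.35 ± 0.50). Nr4a1, a common reporter of antigen receptor signalling, did not pass (1.63 ± 0.69), nor did the remaining Fos, Jun and Rel family members tested. Myc lost its call without spleen 3, tumor 2, tumor 3 or tumor 4 (adjusted p up to 0.0713). Nr4a2 lost it without spleen 2, spleen 3 or tumor 4 (up to 0.0735), Nfkbia without spleen 1, spleen 3, spleen 4, tumor 2 or tumor 4 (up to 0.0831), Tnfaip3 without any library but tumor 3 or tumor 4 (up to 0.0822) and Egr1 without any library but tumor 1 (up to 0.118). Without spleen replicate 3, 4 members rose.

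The 250 bases before the RefSeq start were searched, on both strands, for the letters of 5 motifs (GRCm38.p6, the start farthest upstream per gene). The AP-1 letters TGANTCA were found in 10.3% of the 311 higher genes with a promoter entry, in 3.83% of the 261 lower genes and in 3.86% of the 8084 genes tested. The NF-kB letters (GGGA, any base, TTTCC) were in 1.93%, 0.766% and 0.383%, which rest on only 6, 2 and 31 genes. The ISRE letters of interferon-response elements (GAAA, 2 free bases, GAAA) were in 5.79%, 3.07% and 2.94%. The letters ACGTG, the core of a hypoxia-response element, were in 25.7%, 19.2% and 22.7%, and the ETS letters CCGGAAG in 9.32%, 10.3% and 15.8%. Over all 27025 promoters in the table the shares were 6.85% for AP-1, 0.344% for NF-kB, 3.05% for ISRE, 16.5% for ACGTG and 7.07% for ETS. No motif shares its full letters with another. These shares are descriptions of letters, not of binding. The higher genes with the smallest p that hold AP-1 letters were Gzmb, Upp1 (a uridine phosphorylase) and Cxcl10, and the first with NF-kB letters was Cxcl1 (a neutrophil-attracting chemokine). Their sequences are shown 5′ to 3′ on the gene's strand, so that the matches, in capitals, can be seen in context.
Gzmb, chr14:56262335-56262584, minus strand, 58 bases before the start: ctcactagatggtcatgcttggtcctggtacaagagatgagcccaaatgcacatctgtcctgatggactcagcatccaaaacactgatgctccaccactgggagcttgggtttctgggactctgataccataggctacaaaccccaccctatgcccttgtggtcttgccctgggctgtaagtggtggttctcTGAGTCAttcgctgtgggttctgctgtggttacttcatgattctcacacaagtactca
Upp1, chr11:9117758-9118007, plus strand, 45 bases before the start: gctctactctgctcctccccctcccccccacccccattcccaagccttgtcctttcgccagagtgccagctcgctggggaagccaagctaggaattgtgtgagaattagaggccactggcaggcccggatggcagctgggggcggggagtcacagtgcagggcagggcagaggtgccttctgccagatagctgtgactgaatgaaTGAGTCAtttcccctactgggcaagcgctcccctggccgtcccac
Cxcl10, chr5:92348890-92349139, minus strand, 74 bases before the start: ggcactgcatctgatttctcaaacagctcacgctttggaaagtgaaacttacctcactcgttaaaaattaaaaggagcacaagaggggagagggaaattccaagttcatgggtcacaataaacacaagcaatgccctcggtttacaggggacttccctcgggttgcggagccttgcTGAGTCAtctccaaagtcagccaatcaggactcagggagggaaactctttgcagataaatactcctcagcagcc
Cxcl1, chr5:90890995-90891244, plus strand, 71 bases before the start: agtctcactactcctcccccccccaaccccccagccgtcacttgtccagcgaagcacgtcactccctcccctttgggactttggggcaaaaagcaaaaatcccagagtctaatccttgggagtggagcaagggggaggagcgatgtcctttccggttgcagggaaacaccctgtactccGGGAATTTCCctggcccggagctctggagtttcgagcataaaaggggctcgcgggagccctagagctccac
The first 3 hold the same 7 letters, TGAGTCA, and the last holds GGGAATTTCC. Upp1 had 8.68, 6.79, 5.11 and 7.93 CPM in tumor and 0 counts in all spleen libraries, which is at least 89.4-fold higher against a floor of 3 counts over the spleen group. Cxcl1 had 5.59, 3.13, 4.09 and 11.3 CPM in tumor and 3 counts in spleen, all in replicate 2, a count ratio of 77.01 (95% counting interval 25.9 to 377).

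Glycolysis and hypoxia-response genes had the largest share of risen members among the 21 lists that are not markers of other cells: 18 of 27 rose in tumor and 0 fell (median log2 fold change 2.41). The list includes the glucose transporter Slc2a1, the glycolytic enzymes Gpi1, Pfkp, Aldoa, Tpi1, Gapdh, Pgk1, Pgam1, Eno1, Pkm and Ldha, and the lactate exporter Slc16a3. Hif1a, the oxygen-regulated subunit of the hypoxia-inducible factor, rose from 541, 289, 489 and 801 CPM to 5363, 2091, 2435 and 5179 CPM, 7.11-fold (2.83 ± 0.44, adjusted p = 0.0101). Tpi1 rose from 6.89, 8.82, 3.98 and 4.93 to 74.7, 211, 83.4 and 81.1 CPM (4.19 ± 0.63), and Pgam1 from 4.99, 5.99, 5.98 and 3.41 to 40.9, 36.6, 39.1 and 40.95 CPM (2.95 ± 0.43). Ldha averaged 1002 ± 154 CPM in tumor and 229 ± 72.4 CPM in spleen (SD, n = 4 each; 2.13 ± 0.36). Targets of HIF outside glycolysis were higher too: Bnip3, a mitophagy receptor, rose (spleen 0.699 to 3.03 CPM, tumor 39.7 to 54.2 CPM, 4.76 ± 0.60), Ndrg1 rose (spleen 5.88 to 16.3 CPM, tumor 109 to 469.7 CPM, 4.55 ± 0.69), and the oxidase Ero1a rose (spleen 7.17 to 27.7 CPM, tumor 159 to 1225 CPM, 5.58 ± 0.89). Vegfa, the endothelial growth factor, was also higher (5.47 ± 0.92), and Higd1a passed. Slc2a3, the other glucose transporter of T cells, did not (-1.29 ± 0.95, adjusted p = 0.411), nor did Hk1, Hk2 and Pdk1. Reads of glycolytic genes with processed pseudogene copies may be split. The count lay between 12 (without spleen replicate 3) and 17 when 1 library was left out, and was 10 without both replicate 2 libraries. Pgk1 lost its call without spleen 1 or spleen 3, Slc16a3 without spleen 1 or spleen 3, Higd1a without spleen 1, spleen 3 or tumor 4 and Gapdh without spleen 1, spleen 3, spleen 4 or tumor 4 (adjusted p up to 0.0642). Pkm lost it without any library but spleen 2 or tumor 2 and Pfkp without any library but tumor 1 (up to 0.105).

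Dgat1, which makes triglycerides from diglycerides, was the only 1 of 25 cholesterol and lipid synthesis genes that passed. It stood at 29203, 18292, 21556 and 18476 CPM in tumor and 1242, 373, 796 and 1474 CPM in spleen, 22.5-fold (4.49 ± 0.43, adjusted p = 0.00399), and so took up over 1% of each tumor library. Of 18 amino acid transport, polyamine and metallothionein genes, 4 rose and 0 fell. Odc1, the first enzyme of polyamine synthesis, rose from 54.8, 139, 179 and 50.2 to 992, 1214, 1343 and 2149 CPM (3.75 ± 0.55), and Sat1, which acetylates polyamines for export, rose (spleen 908 to 1583 CPM, tumor 1861 to 3984 CPM, 1.30 ± 0.31). The metal-binding metallothioneins Mt1 (spleen 0.398 to 1.14 CPM, tumor 17.7 to 92.7 CPM, 5.79 ± 0.81) and Mt2 (3.50 ± 0.65) rose together. Asns, asparagine synthetase, was the only 1 of 19 unfolded protein response and ATF4 genes that passed (2.57 ± 0.46). Over all genes tested 3.9% were higher in tumor, and the counts of 1 of 25 and 1 of 19 are near that share. Sat1 lost its call without any library but spleen 4 or tumor 3 (adjusted p up to 0.102) and Mt2 without spleen 1 or spleen 3 (up to 0.0547).

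Type I interferon response genes were higher in tumor: 12 of 30 rose and 0 fell (median log2 fold change 2.24). Ly6a, which encodes the surface protein Sca-1, rose from 31.6, 39.9, 23.7 and 33.4 CPM to 310.0, 313, 300.2 and 330.1 CPM (3.29 ± 0.43, adjusted p = 0.00565), with a tumor spread of 12.46 CPM (SD, n = 4). Ifi27l2a rose (spleen 39.1 to 65.3 CPM, tumor 317 to 449.9 CPM, 2.99 ± 0.42), Ifit3, an RNA-binding antiviral protein, rose (spleen 2.79 to 6.19 CPM, tumor 23.3 to 34.3 CPM, 2.85 ± 0.45), and the ubiquitin-like modifier Isg15 rose (spleen 1.73 to 3.03 CPM, tumor 7.59 to 22.2 CPM, 2.64 ± 0.46). Irf7, a factor that amplifies interferon, rose (spleen 6.37 to 10.1 CPM, tumor 36.8 to 65.1 CPM, 2.60 ± 0.47). Bst2, Ifit3b, Mx1, Ifit1, Xaf1, Oasl2 and Rsad2 passed too. Ifit3 and Ifit3b are near-identical copies whose reads may be split. Of 25 interferon-gamma response and MHC class I genes 4 rose: Igtp, an immunity-related GTPase (spleen 28.6 to 63.4 CPM, tumor 168 to 508 CPM, 3.14 ± 0.54), and 3 parts of MHC class I, H2-K1, H2-D1 and B2m. H2-K1 stood at 49269, 46661, 35893 and 78269 CPM in tumor and 17265, 17082, 22005 and 26537 CPM in spleen, 2.54-fold (1.34 ± 0.24, adjusted p = 0.0155). H2-K1 and H2-D1 are close paralogs. Without spleen replicate 3 the number of risen type I genes was 5, and without both replicate 2 libraries 2. Irf7 and Bst2 lost their calls without spleen 3 (adjusted p 0.0547 and 0.0508), Ifit3b without spleen 1, spleen 3 or tumor 4 (0.0679) and Mx1 without spleen 2, spleen 3 or spleen 4 (0.0728 at the highest). Ifit1 and Rsad2 lost theirs without any library but spleen 2 or tumor 3, Oasl2 without any library but spleen 1, and Xaf1 without any 1 of the 8 libraries (up to 0.102). H2-D1 lost it without spleen 1, spleen 3, spleen 4 or tumor 4 (up to 0.0694) and B2m without any library but tumor 1 (up to 0.13).

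Bcl2l1, which encodes the survival protein BCL-XL, had the smallest p of all genes, and its sister gene Bcl2 moved the opposite way. Bcl2l1 (chromosome 2, 152758732 to 152833803, GRCm38.p6) rose from 1091, 1009.8, 828 and 951 CPM in spleen to 5815, 5949.5, 4861 and 6571 CPM in tumor, 5.98-fold (2.58 ± 0.19, adjusted p = 0.0029). Among 21 survival and death genes 5 rose and 1 fell. Pmaip1, the pro-apoptotic protein NOXA, rose (spleen 2.29 to 4.93 CPM, tumor 42.2 to 397 CPM, 5.68 ± 0.88). Cdkn1a, the cell cycle inhibitor p21, rose from 5.09, 8.98, 36.8 and 1.52 to 179, 431, 236 and 290.0 CPM (4.44 ± 0.99). Bcl2a1d and Bcl2a1a, near-identical copies of the survival gene A1, passed as well (2.15 ± 0.40 and 2.31 ± 0.56), although their reads cannot be assigned with certainty. Of 41 cell cycle genes 4 rose and 0 fell, while 3.9% of all genes tested rose and 3.2% fell. The 4 were Cdk6, a kinase of G1 (spleen 0.788 to 1.71 CPM, tumor 4.82 to 14.2 CPM, 3.16 ± 0.49), E2f1, Stmn1 and Aurkb. Mki67, the common proliferation marker, stood at 106, 75.1, 106 and 87.1 CPM in tumor and 23.1, 19.6, 40.1 and 282 CPM in spleen and did not pass, and its sign changed with the library left out. In the TGF-beta list, Smad3, a signal transducer, fell from 41.02, 52.9, 77.2 and 44.1 to 6.95, 4.21, 3.21 and 7.81 CPM (-3.28 ± 0.53). The inhibitors of this pathway Smad7 (2.19 ± 0.52) and Skil (1.42 ± 0.36) and the integrin chain Itgav rose, 3 of 14 in all. Cdkn1a lost its call without spleen 1, spleen 2, tumor 2, tumor 3 or tumor 4 (adjusted p up to 0.0814), Bcl2a1d without spleen 3 (0.0547), and Bcl2a1a, Smad7 and Skil in 7 of the 8 fits each, all but those without tumor 3, spleen 4 and tumor 4 (up to 0.0995, 0.0854 and 0.117). E2f1 lost it without spleen 1, spleen 2, spleen 3 or tumor 4, Stmn1 without spleen 1, spleen 3, spleen 4 or tumor 1 and Aurkb without any library but spleen 4 or tumor 2 (up to 0.0682, 0.0682 and 0.0682).

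Lists that bear on RNA quality were read too. Of 77 cytoplasmic ribosomal protein genes 0 passed, with a median log2 fold change of -0.55 and 6 of 77 above 0 (6 at an unadjusted p under 0.05, and 6 lower with DESeq2). Of 49 nuclear-encoded oxidative phosphorylation genes 0 passed (median 0.46; 4 at an unadjusted p under 0.05, and 5 higher with DESeq2). Ribosomal protein genes took 0.379 to 0.485% of counts in tumor and 0.458 to 1.1% in spleen (exact permutation test, two-sided p = 0.0571). Of 18 heat shock chaperones, Dnaja1 alone passed (1.47 ± 0.37), a count near the 3.9% of all genes tested that were higher. Dnaja1 passed in none of the 8 fits without 1 library (adjusted p up to 0.103). The summed level of the list was highest in tumor replicate 1. It was 13040.0, 7881, 7377 and 8547 CPM in tumor and 4814, 6354, 5168 and 6250.0 CPM in spleen. Whether the levels of these lists contribute to the changes above was not tested.

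**Figure D3:**
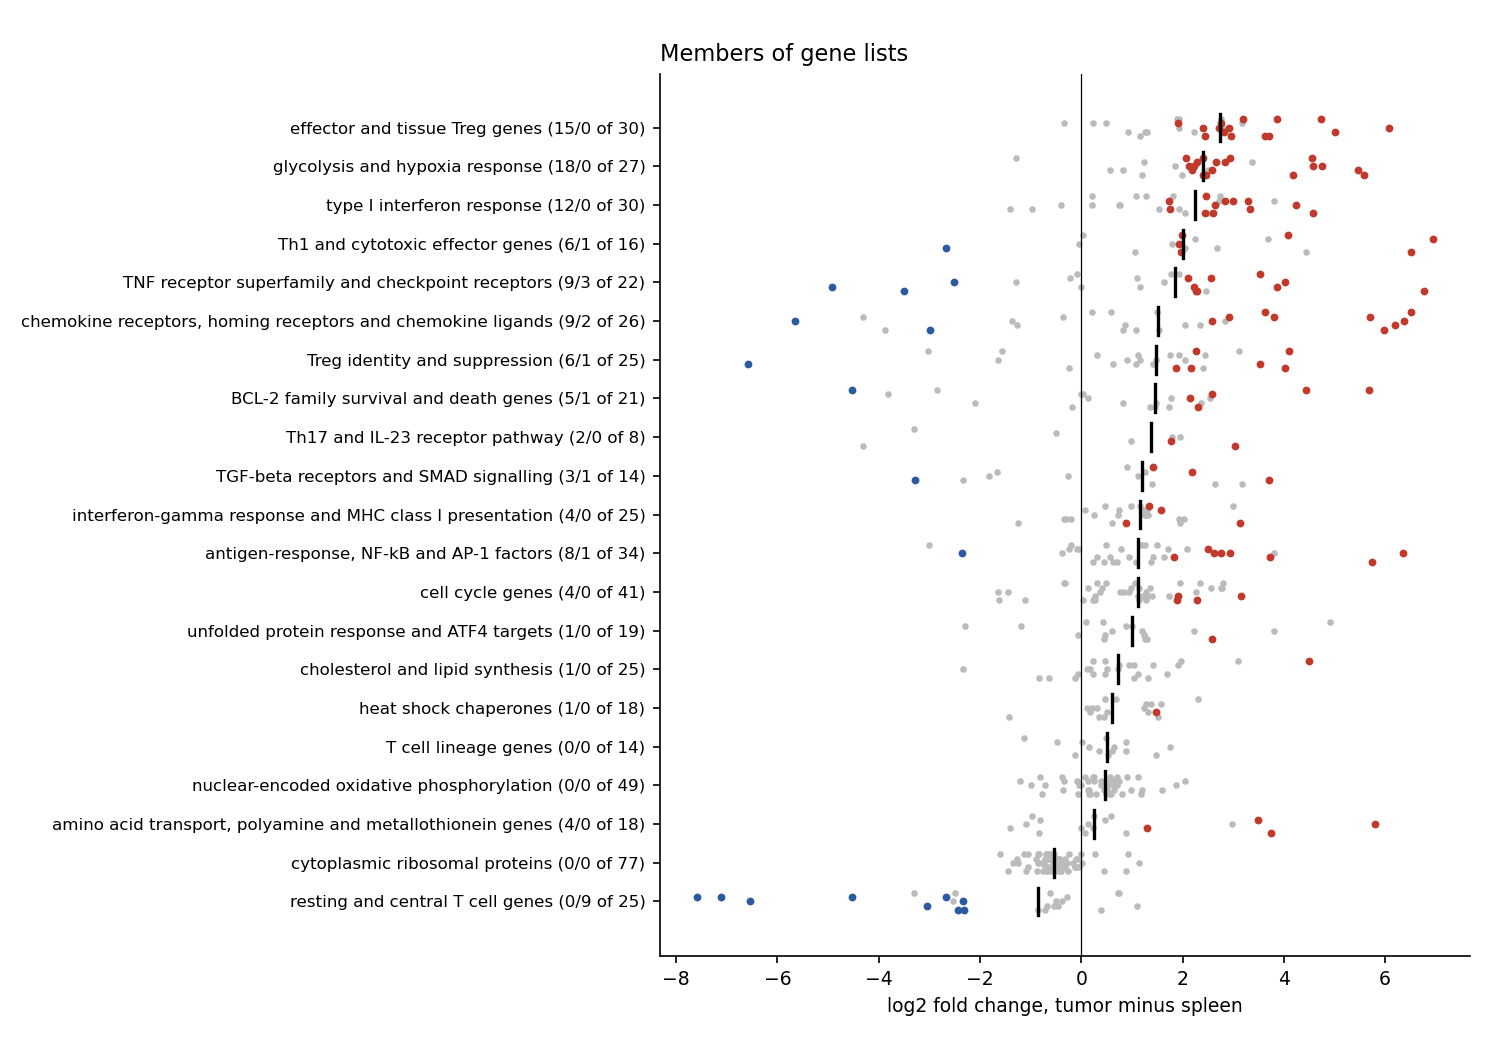
Log2 fold change of tumor minus spleen (x axis) of each tested member of 21 gene lists. Red points passed and were higher in tumor, blue points passed and were lower, grey points did not pass, the black bar is the list's median, and the label gives higher and lower members of those tested. Effector and tissue Treg genes, glycolysis, type I interferon and Th1 and cytotoxic genes have medians above 2, and resting T cell genes have the lowest median, -0.85.

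B cell transcripts were carried by the spleen libraries. Of 15 tested B cell and plasma cell markers (of 24 found) 10 fell in tumor and 0 rose, with a median log2 fold change of -6.74. Markers near 0 in tumor passed the count filter through the spleen libraries alone, which favours falls among those tested. With no filter on low counts all 24 were tested: 13 fell, 0 rose and the median was -5.34. The summed level of the 24 was 1155, 2591, 1346 and 824 CPM in spleen and 325, 138, 163 and 307 CPM in tumor, with spleen replicate 2 highest and no overlap. Ms4a1, which encodes CD20, stood at 162, 674, 171 and 43.6 CPM in spleen and 0, 0.539, 0 and 1.32 CPM in tumor (-9.03 ± 1.603, adjusted p = 0.0143). Cr2, the complement receptor CD21, had 26.8, 66.1, 11.9 and 2.65 CPM in spleen and 0 counts in tumor, at least 322-fold lower in tumor against a floor of 3 counts over the group. Fcmr and Bank1 were at 0 in tumor too (at least 96.9-fold and 89.9-fold lower), and 7 of the 24 markers in all had no count there. Igkc, the kappa light chain, remained at 5.402, 3.34, 3.36 and 2.28 CPM in tumor against 37.1, 107, 50.2 and 30.5 CPM in spleen (-3.97 ± 0.63), and Jchain, the joining chain of plasma cells, had 3 tumor counts (count ratio 149 in favour of spleen, interval 50.7 to 724). Ighm did not pass (-1.32 ± 0.65), and tumor replicate 1 held 263 CPM of Ralgps2, a marker at 2.16 CPM or less in the other tumor libraries, which passed as lower without tumor 1 (-5.84). Cd79a, Fcer2a and Ighd fell too. Btk, Aff3 and Fcer2a, among the genes with the largest falls of all, are known from B cells. Aff3 did not follow the B cell sum across spleen libraries, being lowest in replicate 2 and highest in replicate 4 (levels given below). Which cells its RNA came from was not tested. How far B cell RNA sets the 338 lower genes was not tested. Without tumor replicate 2, 4 markers fell, and without both replicate 2 libraries 5. Cr2 lost its call without spleen 1 or spleen 3 (adjusted p up to 0.0522), Cd79a without tumor 2 or tumor 4 (up to 0.0624), Fcer2a without tumor 1, tumor 2, tumor 3 or tumor 4 (up to 0.0874), Ighd without spleen 3, tumor 1, tumor 2, tumor 3 or tumor 4 (up to 0.0775), Fcmr without spleen 1, spleen 3, tumor 2, tumor 3 or tumor 4 and Bank1 without spleen 1, spleen 3, tumor 2, tumor 3 or tumor 4 (up to 0.0547 and 0.0623).

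Stromal transcripts were carried by the tumor libraries. Of 10 tested fibroblast markers (of 23 found) 8 rose in tumor and 0 fell, with a median log2 fold change of 6.600. Markers near 0 in spleen passed the count filter through the tumor libraries alone, which favours rises among those tested. With no filter on low counts all 23 were tested: 11 rose, 0 fell and the median was 4.24. Their summed level was 327, 128, 261 and 195 CPM in tumor and 11.7, 20.6, 24.7 and 25.8 CPM in spleen, without overlap. Col3a1, a fibrillar collagen, stood at 92.02, 5.61, 28.03 and 14.1 CPM in tumor and 0.0998, 0, 0.398 and 0 CPM in spleen (7.91 ± 1.40). Decorin (Dcn) had 26.8, 1.29, 70.7 and 5.404 CPM in tumor and 1 count in spleen (count ratio 873, 95% counting interval 156 to 34522). Col6a3 (11.96 to 21.5 CPM in tumor) had 1 spleen count, and Col6a2 and Fbn1 had 2 each. Sparc rose (spleen 0.569 to 0.697 CPM, tumor 6.25 to 19.8 CPM, 4.28 ± 0.52), and Col6a1 and Fn1 also passed. The level differed among tumor libraries: Dcn was highest in replicate 3, and Col3a1 and Col6a2 were highest in replicate 1. Dcn lost its call without spleen 3 (adjusted p 0.0695) and Fn1 without spleen 1, spleen 3, spleen 4 or tumor 3 (up to 0.0782), and 7 to 10 markers rose without 1 library. How far stromal RNA sets the 412 higher genes was not tested. With the marker genes of other cell types left out of the table, 721 genes passed (398 higher, 323 lower). Of the genes called in the main fit, 728 stayed in that table, and 721 of them passed again. Leaving out listed markers does not remove RNA of other cells from the remaining genes. That fit therefore cannot show how far such RNA sets the calls.

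Markers of other cells separated the tissues in part, with few members past the test. The summed red cell and platelet genes were higher in spleen, 123, 609, 61.6 and 174 CPM against 38.4, 17.4, 2.04 and 2.52 CPM in tumor, and 0 of 5 tested passed over the 8 libraries. Hbb-bs, a beta globin, stood at 18.6, 85.4, 9.16 and 22.7 CPM in spleen and 3.09, 0.108, 0 and 0 CPM in tumor, and passed without tumor 1. In that fit 4 of the 5 fell (median log2 fold change -7.69 instead of -4.81), as did 4 with DESeq2 and 3 with voom quality weights, and 4 had an unadjusted p under 0.05 in edgeR. MHC class II genes of antigen-presenting cells summed to 332 to 842 CPM in spleen and 82.9 to 264 CPM in tumor, and 0 of 9 passed (1 at an unadjusted p under 0.05, and 1 lower with DESeq2), with H2-Aa at 12.6, 82.3, 15.7 and 5.87 CPM in spleen and 7.52, 13.4, 9.64 and 1.201 CPM in tumor. Macrophage markers overlapped, at 190.0 to 544 CPM in tumor and 304 to 584 CPM in spleen. In that list Spp1 (osteopontin) rose (spleen 0.236 to 0.948 CPM, tumor 10.03 to 112 CPM, 6.13 ± 0.99), and Apoe (apolipoprotein E) fell (spleen 154 to 210.1 CPM, tumor 14.1 to 35.7 CPM, -2.96 ± 0.50). Dendritic cell markers summed to 46.7 to 50.96 CPM in tumor and 9.48 to 18.4 CPM in spleen, with 1 of 3 tested higher, Bst2, which also belongs to the interferon list. Neutrophil markers were at 7.301 to 16.01 CPM in tumor and 6.97 to 67.3 CPM in spleen. Of the markers of epithelium and MC38 cells, Krt8, Krt19, Cldn3, Cldn4, Cdx2 and Elf3 had 0 counts in all 8 libraries, and 0 of 2 tested passed. Lgals4, a galectin of intestinal epithelium, was the exception, at 0.965, 707, 589 and 282 CPM in tumor and 462, 460.1, 419.6 and 562 CPM in spleen (-0.27 ± 1.14). Tek, Emcn, Cldn5 and Tie1 of the endothelial list were at 0 in all 8 as well, while Pecam1, which T cells also express, stood at 2.51, 58.97, 64.1 and 236 CPM in tumor and 94.7, 54.9, 114 and 165 CPM in spleen and did not pass. CD8 T cell and NK cell markers summed to 3.796 to 72.1 CPM in tumor and 17.4 to 89.2 CPM in spleen, and 1 of 4 tested, Eomes, fell.

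**Figure D4:**
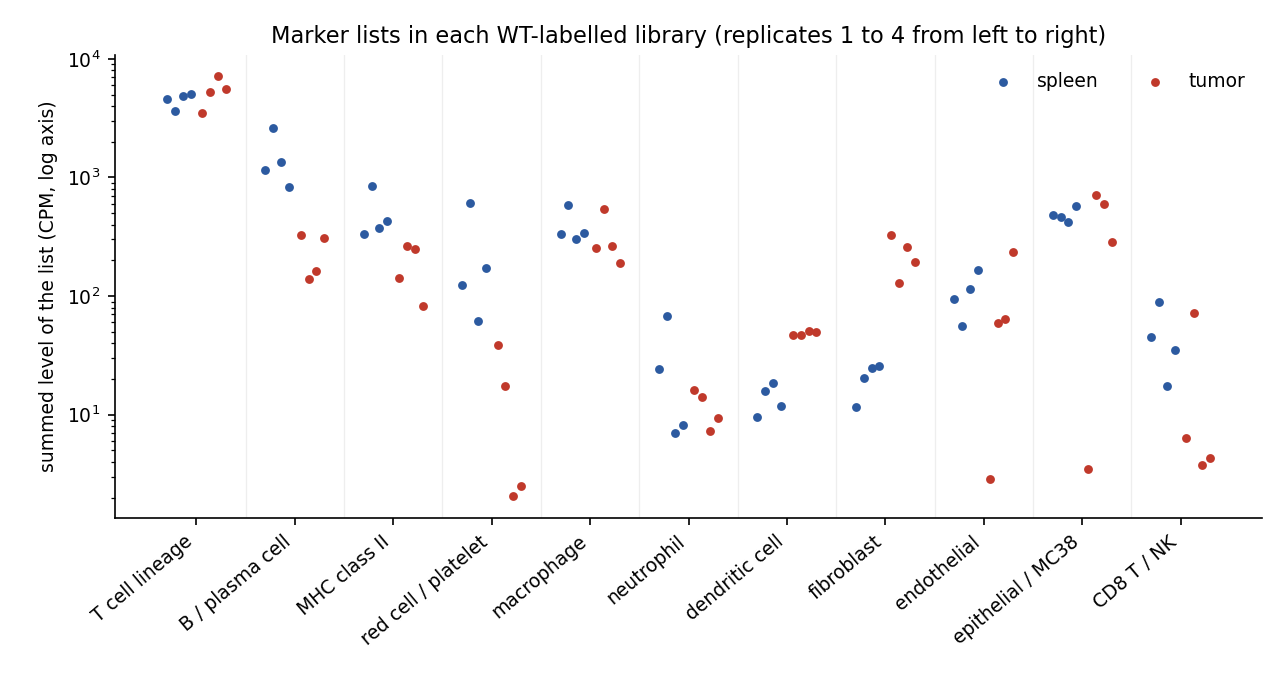
Summed level (y axis, CPM, log axis) of the T cell lineage genes and of 10 marker lists of other cells in the 4 spleen (blue) and 4 tumor (red) WT-labelled libraries, replicates 1 to 4 from left to right. B cell, MHC class II and red cell sums are higher in all spleen libraries, dendritic and fibroblast sums in all tumor libraries, and spleen replicate 2 has the highest B cell and red cell sums (2591 and 609 CPM). The only called dendritic marker is Bst2, which also belongs to the interferon list.

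The largest changes by size were partly genes of neither the T cell nor the marker lists. Among higher genes, Sox9, a transcription factor of epithelial and cartilage progenitors, stood at 398, 66.4, 155 and 96.8 CPM in tumor and 0 to 0.758 CPM in spleen (8.98 ± 1.37, adjusted p = 0.00911). Ncam1, a neural cell adhesion molecule, stood at 13.1, 304, 301 and 767 CPM against 0.399 to 1.496 CPM (8.70 ± 1.31), and Kit, the stem cell factor receptor, at 5.02, 90.8, 209 and 803 CPM against 0.1996 to 1.42 CPM (8.55 ± 1.61). These 3 varied over 5-fold among tumor libraries, with Sox9 highest in replicate 1 and Ncam1 and Kit lowest there. Sytl3, a vesicle-tethering protein, rose from 0.699, 0.709, 0.697 and 0.569 to 244, 148, 286 and 31.9 CPM (8.01 ± 0.89). Metrnl, a secreted meteorin-like factor, rose (spleen 0.0998 to 0.569 CPM, tumor 11.8 to 111 CPM, 7.50 ± 1.16), and Slc15a3, a lysosomal peptide transporter, rose (spleen 0.0996 to 0.394 CPM, tumor 20.6 to 66.1 CPM, 7.38 ± 0.78). Ccl2, the ligand of CCR2, had 7.14, 29.8, 27.7 and 30.7 CPM in tumor and 2 counts in spleen (count ratio 487, 95% counting interval 134 to 4029). Stab1 (stabilin-1, a scavenger receptor), Kdelr3 (an ER retention receptor), Bcar1 (an adhesion adaptor) and Ccdc184 were the other leading higher genes, and Bcar1 and Kdelr3 were uneven, at 4.05, 94.98, 2.63 and 247 CPM and 260.1, 1.402, 67.3 and 1.44 CPM in tumor. Among lower genes outside the B cell list, Tert, the reverse transcriptase of telomerase, fell from 114, 1.73, 71.3 and 42.6 CPM in spleen to 0 to 0.438 CPM in tumor (-7.70 ± 1.39), and Wdr66 from 242, 19.1, 224 and 127 to 0.1201 to 1.93 CPM (-7.89 ± 1.32). Both were lowest among spleen libraries in replicate 2. Aff3, a nuclear protein of lymphoid cells, fell from 33.6, 24.1, 88.5 and 237 to 0 to 0.386 CPM (-8.41 ± 1.25). Treml2, a receptor of the TREM family, had 2 counts in tumor against 616 in spleen, and the sphingolipid enzyme Degs2 had 2 against 959. The channel Hcn3, Sarm1 (an NAD hydrolase) and Pheta2 had 1, 3 and 3 counts in tumor against 1022, 2201 and 1810 in spleen. Kit lost its call without spleen 1, spleen 3 or spleen 4 (adjusted p up to 0.0603), Stab1 without spleen 3 or spleen 4 (up to 0.0579), Hcn3 without tumor 2 (0.0638), Kdelr3 without any library but tumor 2 or tumor 4 (up to 0.112), Bcar1 without spleen 1, spleen 2, spleen 3 or spleen 4 and Sarm1 without spleen 3, tumor 2, tumor 3 or tumor 4 (up to 0.0764 and 0.0628).

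The same contrast in the Flox-labelled mice, which share no library with the WT-labelled ones, was set beside these values. Of 10760 genes tested there, 847 (7.87%) passed, 447 (4.15%) higher and 400 (3.72%) lower in tumor. With 3 libraries per tissue the count moved with single libraries: it was 1 without spleen replicate 1, 0 without spleen replicate 2 or 3, 154, 472 and 102 without tumor replicates 1, 2 and 3, and 2915 with DESeq2. Of the 750 WT-labelled genes 719 were tested there, and 668 (92.9%) had the same sign, against 67.2% of all genes tested in both. The number that passed in both contrasts in the same direction was 319, which is 42.5% of the WT-labelled and 37.7% of the Flox-labelled genes, and 0 passed in opposite directions. Shared genes were 54.6% of the WT-labelled higher and 27.8% of the WT-labelled lower genes. In Flox-labelled libraries Bcl2l1 had a log2 fold change of 2.00, Gzmb 6.79, Dgat1 4.23, Id2 3.02 and Icos 3.58, and all 5 passed. Tcf7 had -6.96, Klf3 -4.59 and Foxp1 -1.96 and passed, whereas Bcl2 (-1.33) and Jak2 (0.68) did not.

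Whether the shift from spleen to tumor differed between the genotypes was tested as an interaction over all 14 libraries. Of 12008 genes 0 passed (edgeR; 1296 at an unadjusted p under 0.05), while DESeq2 gave 157 (1440 at an unadjusted p under 0.05). No change above is therefore called particular to the WT-labelled mice. The genes with the smallest p were Dtx4, Ankrd55 and Itpkc, with an adjusted p of 0.395 at the smallest. Itpkc, a kinase of inositol trisphosphate, fell in WT-labelled libraries from 12.6, 16.2, 52.3 and 43.4 to 1.74, 2.803, 1.898 and 1.68 CPM (-3.92 ± 0.63) and had a log2 fold change of 0.65 in Flox-labelled ones.

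**Figure D5:**
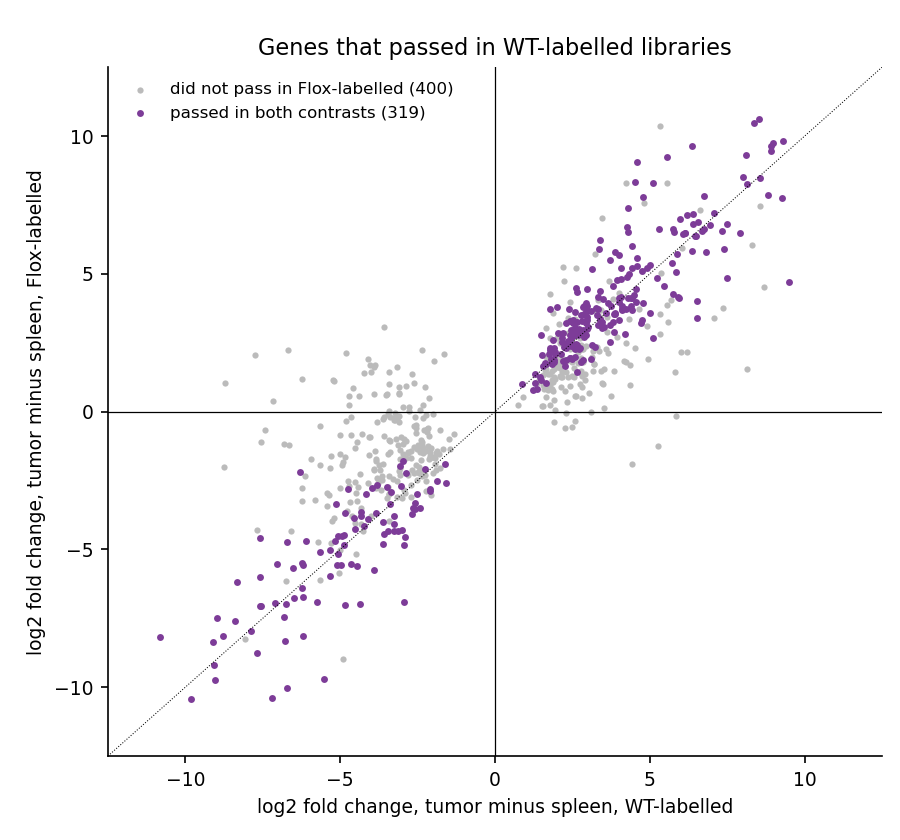
Log2 fold change of tumor minus spleen in WT-labelled libraries (x axis) and in Flox-labelled libraries (y axis) for the 719 genes that passed in WT-labelled libraries and were tested in both. Purple points (319) passed in both contrasts and grey points (400) did not pass in Flox-labelled libraries, and the dotted line marks equal values. Most points (668) lie in the 2 quadrants of equal sign.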

How the data were processed

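The deposited table holds raw read counts of the authors for 27179 gene identifiers in 14 libraries, made on the mouse build mm10 per the submitters' processing notes. Aligner, counting tool and strand setting were not given in the sources used here. Gene symbols came from RefSeq (25275 identifiers) and GENCODE (18), and 1886 identifiers (1.25 to 1.94% of a library's counts) stayed unmatched. The 8 WT-labelled libraries held 4859099 to 10208509 counts, and all were distinct. Genes with too few counts were removed with filterByExpr (minimum count 10, minimum total count 15).

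The contrast was fitted on these 8 libraries in R 4.3.3 with TMM factors and the quasi-likelihood F test of edgeR 4.0.16. P-values were adjusted over all tested genes (Benjamini-Hochberg), with a threshold of 0.05. limma 3.58.1, DESeq2 1.42.0, other scalings and filters, a replicate block, all 14 libraries and fits without single libraries were alternatives, and scaling to library totals and leaving out tumor replicate 1 with spleen replicate 2 were added after seeing the data. Library measures were compared by exact permutation tests over 70 arrangements. Folds against a group at 0 used a floor of 3 counts over the group, count ratios and these folds used TMM-scaled totals, and intervals of count ratios are 95% and cover counting error only. The functions were tested on simulated counts.

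The libraries, gene lists and rules for naming genes were chosen with earlier results of these data known. Named were 9 Treg genes, up to 15 genes per direction by fold (average log2 CPM of 2 or more, no overlap), up to 6 passing members of each list by p, up to 5 abundant markers and 3 genes for the genotype difference. Other genes were chosen after their values were seen. List counts are descriptions without a test. Promoters came from RefSeq (GRCm38.p6). Without a stated strand setting, reads of overlapping genes cannot be assigned to 1 of them.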

Additional observations from a re-analysis of the deposited data

Results flagged for a closer look

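A value was singled out where 1 library stood apart from the other 3 of its tissue, with a gap to the next value above the 95% critical value of Dixon's test for 4 values. Of 494 groups of 4 values examined 40 (8.1%) met this, and chance gives about 1 in 20 for normally distributed values. Where the other 3 libraries are at 0, any count in the remaining library meets the rule. The genes examined were those described in the text, so the share cannot be weighed against that rate. Each value below is set against the other 3 libraries of the tissue. In tumor replicate 1 the high values were Tcf7 (16.01 against 4.68 to 5.11 CPM), Ralgps2 (263 against 0.961 to 2.16 CPM), Icos (1578 against 969 to 1052 CPM), Srgn (709 against 448 to 472 CPM), Dnaja1 (3616 against 1630.0 to 1833 CPM), Hbb-bs (3.09 against 0 to 0.108 CPM) and Sarm1 (0.579 against 0 CPM). The low values of the same library were Ccl2 (7.14 against 27.7 to 30.7 CPM), Tnfrsf9 (612 against 1108 to 1215 CPM), Hilpda (30.7 against 56.5 to 58.1 CPM) and Lgals4 (0.965 against 282 to 707 CPM).

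In tumor replicate 2 the high values were Tpi1 (211 against 74.7 to 83.4 CPM), Vegfa (25.9 against 5.21 to 5.55 CPM), Ddx3y (127 against 0 to 0.386 CPM), Il23r (0.216 against 0 CPM) and Hcn3 (0.108 against 0 CPM). The summed CD8 T cell and NK cell markers were also high there, at 72.1 CPM. In tumor replicate 3 Irf4 was high, at 285 CPM against 27.2 CPM in the lowest, and Aff3 and St8sia1 were at 0 CPM. In tumor replicate 4 the high values were Tbx21 (344 against 11.2 to 20.3 CPM), Ccr2 (5862 against 2909 to 2996 CPM) and Fcer2a (0.1201 against 0 CPM).

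Spleen replicate 2 held high values of B cell genes, Fcmr (23.2 against 2.65 to 3.49 CPM) and Fcer2a (45.2 against 1.697 to 2.69 CPM). It was high too for Ddx3y (29.5 against 0.299 to 0.599 CPM), Vim (128 against 56.1 to 60.98 CPM), Col6a1 (0.315 against 0 CPM) and Cxcl1 (0.236 against 0 CPM), and low for Cxcr5 (51.5 against 98.3 to 112 CPM). Mitochondrial transcripts took 2.06% of its counts against 1.36 to 1.40% in the other 3. The other spleen values were Ero1a (27.7 against 7.17 to 8.900 CPM), Ralgps2 (36.6 against 110.0 to 120.1 CPM), Sytl3 (0.569 against 0.697 to 0.709 CPM) and Ccdc184 (0.1895 against 0 CPM) in replicate 4, Bcl2a1a (0.896 against 1.697 to 1.895 CPM) in replicate 3 and Asns (0.299 against 0.709 to 0.797 CPM) in replicate 1. There were also single or few counts of Il23r (0.199 CPM, replicate 3), Dcn (0.0996 CPM, replicate 3) and Col6a3 (0.0998 CPM, replicate 1). What sets these libraries apart was not tested.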

How the results depend on the processing

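All 750 genes that passed kept their direction in every alternative in which they were tested, and the counts moved with the test and the libraries. In WT-labelled libraries 2438 genes passed with DESeq2 (1293 higher, 1145 lower; 732 of the 750 among them), 1514 in a fit of all 14 libraries (855 higher, 659 lower), 173 with a replicate block (110 higher, 63 lower; 166 of the 750) and 329 without both replicate 2 libraries (173 higher, 156 lower). With tumor replicate 1 and spleen replicate 2 left out together 440 passed (233 higher, 207 lower), and 264 higher genes passed with no filter on low counts. Scaling to library totals gave 614 lower genes. Leaving out 1 library gave 373 to 658 genes, 211 to 328 of them higher and 135 to 332 lower. Same-numbered libraries did not deviate together (correlations -0.0239 to 0.0508), and the main fit did not pair them, although both replicate 2 libraries share Ddx3y transcripts. Such correlations cannot show whether libraries of equal number came from 1 mouse. In Flox-labelled libraries 2915 genes passed with DESeq2, 1 with a replicate block and 0 to 472 without 1 library. For the genotype difference DESeq2 gave 157 genes and fits without 1 library 0 to 1 (1 without tumor Flox replicate 1).

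Genes that did not pass changed sign as follows. Over the fits without 1 library, the log2 fold change ran from -0.53 to 0.052 for Foxp3, -1.37 to 0.20 for Pecam1, -0.725 to 0.14 for Lgals4, -0.55 to 0.097 for Batf and -0.30 to 1.75 for Mki67. With upper-quartile factors it was 0.105 for Ralgps2 and 0.032 for Pecam1. Without tumor replicate 1 and spleen replicate 2 it was 0.17 for Foxp3, 0.089 for Lgals4 and -0.42 for Mki67. Without both replicate 2 libraries it was -0.24 for Mki67 and -0.0199 for Gata3, and on library totals -0.34 and -0.17. Mki67 was at -0.041 with no filter. The cause of these changes was not tested. Depth limits genes such as Il23r, with 2 counts in each tissue.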

Other observations

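The following called genes belong to none of the lists and were picked from the calls after their values were seen, so they stand for no family. St6gal1, which adds alpha-2,6 sialic acid to N-glycans, fell from 188, 186, 212 and 294 CPM in spleen to 3.86, 3.88, 7.16 and 7.09 CPM in tumor (-5.32 ± 0.56 log2 fold change with SE; adjusted p = 0.00399, edgeR). St8sia1, the GD3 synthase, was lower too (-6.50 ± 0.99, adjusted p = 0.00908), and St8sia6 had 3 counts in tumor against 493 in spleen (count ratio 128 in favour of spleen, 95% counting interval 43.6 to 623). The ATP receptor P2rx7 (-5.29 ± 1.17) and the ADP-ribosyltransferase Art2b (-5.41 ± 1.05), which acts on it, were both lower. Cd40lg, the ligand of CD40, fell from 21.96, 26.5, 8.47 and 6.44 to 0.386, 0.431, 0.7301 and 0.601 CPM (-4.84 ± 0.64), Tnfsf8 from 53.2, 44.8, 10.1 and 11.2 to 0.965, 2.05, 1.31 and 2.64 CPM (-4.08 ± 0.75) and Tnfsf14 from 1.297, 2.99, 11.2 and 56.9 to 0.386, 0.108, 0.438 and 0.4804 CPM (-5.64 ± 1.30). In none of these genes did a tumor library overlap a spleen library.

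In the Notch pathway, Rbpj, its DNA-binding factor, rose from 8.58, 10.2, 10.4 and 9.29 to 219, 181, 326 and 424 CPM (4.90 ± 0.52), while Dtx1 (deltex), a Notch target, fell from 39.8, 104, 78.1 and 143 to 2.89, 0.755, 1.31 and 0.961 CPM (-5.95 ± 0.77). Smox, spermine oxidase, rose with the polyamine genes Odc1 and Sat1, from 36.1, 19.6, 15.7 and 20.6 to 372, 439.9, 935 and 780.2 CPM (4.78 ± 0.54). Lmna (lamin A/C, 5.88 ± 0.76) and Vim (vimentin, 2.88 ± 0.47), structural proteins of nucleus and cytoplasm that stromal cells also express, were higher. Litaf (5.94 ± 0.65), the lipid droplet protein Hilpda (4.02 ± 0.50), Il18r1, the IL-18 receptor (3.19 ± 0.74), and Penk, the enkephalin precursor (2.51 ± 0.46), rose too. Btg1, an antiproliferative gene, had the smallest absolute change of all called genes, 0.75 ± 0.18. P2rx7 lost its call without any library but spleen 2 or tumor 2 (adjusted p up to 0.0692). Art2b lost it without tumor 1 (adjusted p 0.0558). Tnfsf14 lost it without spleen 3, tumor 1, tumor 2, tumor 3 or tumor 4 (adjusted p up to 0.0776). Il18r1 lost its call without any library but tumor 2 (adjusted p up to 0.0942). Penk lost it without spleen 1 or spleen 3 (adjusted p up to 0.0579). Btg1 lost it without any library but spleen 4 (adjusted p up to 0.0961). How far RNA of other cells sets these values was not tested.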
